A study of Mus musculus with 8 samples.

Results

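Inhibitory receptors are surface proteins that restrain T cells after activation. The 9 genes described here code for 8 of them and for TOX, a nuclear protein of the HMG-box family that is needed for the exhausted state of CD8 T cells under lasting antigen. They were chosen by symbol from the deposited table: Pdcd1, Lag3, Tigit, Ctla4, Btla, Cd160, Cd244, Havcr2 and Tox, which are 9 of its 13204 genes and the rule uses symbols alone. All 9 passed the filter on low values (at least 1 RPKM in at least 4 libraries). RPKM, a read number divided by exon length and library depth, is the unit of every level below.

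The libraries hold poly(A) RNA of OT-I cells, CD8 T cells with a transgenic receptor for an ovalbumin peptide. Mice received 1000000 OT-I cells 24 hours before a skin graft that expressed ovalbumin, and their spleens were collected 14 days after grafting. The spleens were combined by 3 into 4 pools. From every pool 1000 cells with and 1000 cells without surface FcgRIIB, the inhibitory receptor for IgG, were sorted among CD44hi, Thy1.1+, CD8+ cells. This gave 4 FcgRIIB-positive and 4 FcgRIIB-negative libraries, each positive library paired with the negative library of the same pool. Both groups share the cell transfer, the graft and the day, no group without a graft is used here, and a pool of animals is the replicate. Host genotype and age are not given in the sources used here.

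As background, PD-1 (Pdcd1), TIGIT, BTLA and CD244 carry tyrosine motifs in their tails that recruit phosphatases or adaptors. CTLA-4 competes with CD28 for CD80 and CD86, LAG-3 binds class II MHC, and CD160 shares the ligand HVEM with BTLA. TIM-3 (Havcr2) binds galectin-9 and other ligands and is displayed by exhausted T cells and also by dendritic cells. BTLA is likewise known from B cells and dendritic cells, and CD244 from NK and myeloid cells.

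Depth, recovered from the steps in the RPKM values, was 3056000 to 22006000 reads, with the shallower libraries of either group in replicates 3 and 4. T cell markers were present in every library, but the positive libraries also carried transcripts that the CD8 label does not lead to. The summed level of 16 dendritic cell markers was 544.5 to 1983 RPKM in negative and 9783 to 13320 RPKM in positive libraries, with 15 of 16 called higher (16 with the replicate block). Of 16 macrophage and monocyte markers 11 were called higher, and 14 with the block (1756 to 3464 RPKM summed in negative, 3438 to 4487 RPKM in positive libraries). Much of this sum was Ly6c2, which was called in neither fit (log2 difference -0.51). Ly6c2 alone was at 1431 to 3210 RPKM in negative and at 586.6 to 2422 RPKM in positive libraries, so the sums understate the contrast of the other markers. Of 9 basophil and mast cell markers measured 4 were called higher, and all 9 with the block (9.34 to 46.8 RPKM against 91.2 to 1286 RPKM). Over all genes tested 3.03% were called higher and 0.268% lower, and 7.22% and 3.85% with the block. The sum of 19 core T cell genes was 6047 to 9717 RPKM in negative and 2297 to 4961 RPKM in positive libraries, with all 19 differences below 0, of which limma called none (9 had an unadjusted p under 0.05) and the fit with the replicate block 10. In such bulk samples fewer T cells and less RNA per T cell cannot be told apart. The part of these other transcripts in the differences below was not tested.

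Havcr2, Btla and Cd244 rose in FcgRIIB-positive libraries and Tox fell. They were 12.3-fold, 4.82-fold and 4.50-fold higher, and Tox was 2.99-fold lower, on the RPKM + 1 scale (n = 4 each). The 5 others did not pass the test without a block. This is 3 of 9 higher, where 3.03% of all 11946 genes tested were called higher, and 1 of 9 lower, where 0.268% were called lower (limma, Benjamini-Hochberg adjusted p under 0.05). With the pool as a replicate block, Ctla4 and Cd160 were called lower as well, giving 3 higher and 3 lower of 9, against 7.22% and 3.85% of all genes. The median log2 difference of the 9 genes was -0.47, and that of all genes tested was -0.11. The same 6 genes had ranges that did not overlap between the groups, 3 higher and 3 lower, as did 4.61% (higher) and 4.15% (lower) of all genes tested. Their exact permutation p was 0.0286 each (two-sided), the smallest that 4 against 4 libraries allow when the pairing is left aside, and an exact test within the 4 pairs could not go below 0.05.

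**Figure D1:**
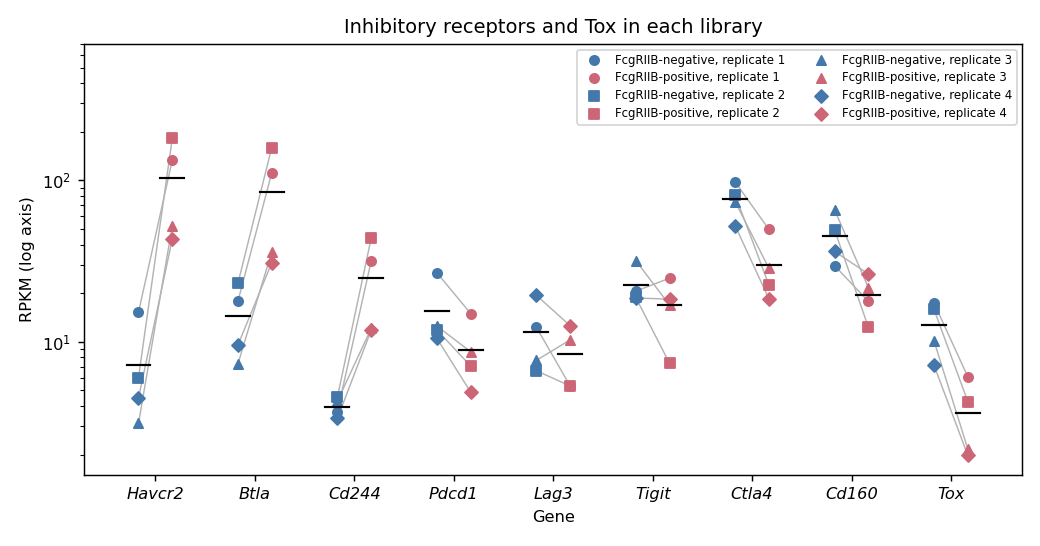
RPKM (log axis) of each of the 9 genes in the 4 FcgRIIB-negative (blue) and 4 FcgRIIB-positive (red) libraries. Marker shape gives the replicate, grey lines join libraries of the same pool of spleens, and black bars are group means. Havcr2, Btla and Cd244 lie higher in every positive library, and Ctla4, Cd160 and Tox lie lower, without overlap.

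The bases just upstream of the start of the 3 genes that rose are shown here, with Ctla4 as a gene that was lower, so that shared letters can be seen. RefSeq promoter entries (GRCm38.p6, a later build than the mm9 of the deposited data) were matched for 7 of the 9 genes. Each line holds the 250 bases before the annotated start, 5′ to 3′, and capitals mark GAGGAAGT, letters that the myeloid and B cell factor PU.1 favours.
Havcr2 (chr11:46454681-46454930, plus strand): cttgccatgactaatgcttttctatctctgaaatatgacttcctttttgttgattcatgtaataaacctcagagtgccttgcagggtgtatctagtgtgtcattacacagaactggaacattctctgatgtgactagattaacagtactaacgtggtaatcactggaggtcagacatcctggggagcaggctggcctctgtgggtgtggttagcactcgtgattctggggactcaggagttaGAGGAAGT
Btla (chr16:45224087-45224336, plus strand): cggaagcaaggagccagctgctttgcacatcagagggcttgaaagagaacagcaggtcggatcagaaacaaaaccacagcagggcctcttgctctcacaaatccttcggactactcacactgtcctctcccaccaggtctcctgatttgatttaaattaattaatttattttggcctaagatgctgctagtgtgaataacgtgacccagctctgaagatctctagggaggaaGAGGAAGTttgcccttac
Cd244 (chr1:171558943-171559192, plus strand): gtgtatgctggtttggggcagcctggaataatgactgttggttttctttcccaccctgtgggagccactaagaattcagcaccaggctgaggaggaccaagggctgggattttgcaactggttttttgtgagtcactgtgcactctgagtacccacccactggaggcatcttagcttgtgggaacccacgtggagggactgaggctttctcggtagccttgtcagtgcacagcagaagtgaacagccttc
Ctla4 (chr1:60908775-60909024, plus strand): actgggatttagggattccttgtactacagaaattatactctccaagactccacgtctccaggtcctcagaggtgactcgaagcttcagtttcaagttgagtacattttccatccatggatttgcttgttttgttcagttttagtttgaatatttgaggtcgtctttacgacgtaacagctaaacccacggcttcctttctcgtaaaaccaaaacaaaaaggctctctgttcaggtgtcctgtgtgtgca
GAGGAAGT, searched on both strands, was found once in Havcr2, beginning 8 bases before the start, and once in Btla, beginning 18 bases before it. It was in 2.44% of all 32851 promoter windows of this length. It was not in the windows of Cd244, Ctla4, Pdcd1, Tigit or Cd160. The shorter ETS core GGAAGT, which GAGGAAGT contains, was in the windows of Havcr2, Btla and 1 of the Cd160 starts, and in 19.7% of all windows. The AP-1 letters TGANTCA were in the windows of Havcr2 and Cd244 (6.75% of all windows), and the NFAT core GGAAAA in those of Ctla4 and Tigit (20.4%). These motifs were chosen after the sequences had been read, and a match is a description of letters, not a site.

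Havcr2 (Entrez 171285), the gene of TIM-3, was at 15.2, 6.00, 3.12 and 4.49 RPKM in negative replicates 1 to 4 and at 133.8, 182.6, 52.3 and 43.3 RPKM in positive replicates 1 to 4. Every positive library was above every negative one, and positive replicates 1 and 2 were the highest. The log2 difference was 3.62 (SE 0.54, limma adjusted p = 0.00305), and it stayed called in 8 of 8 fits that left out 1 library. Within the pools it was 3.05, 4.71, 3.69 and 3.01. It moved from the eighth of the 9 genes by mean level in negative libraries to the first in positive libraries. Among the genes most like it over the 8 libraries were Adam8 (Pearson r = 0.98) and Gusb (r = 0.98), the latter the gene of a lysosomal enzyme.

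Btla (Entrez 208154) was at 17.9, 23.0, 7.29 and 9.55 RPKM in negative and at 111.4, 159.9, 36.1 and 30.9 RPKM in positive replicates 1 to 4. The groups did not overlap, and in both groups replicates 1 and 2 were above replicates 3 and 4. The log2 difference was 2.27 (SE 0.56), with a limma adjusted p of 0.0481 and a blocked one of 5.26e-07. The unblocked call held in 2 of 8 fits with 1 library left out, those without positive replicate 3 or positive replicate 4, and its adjusted p reached 0.191 without negative replicate 3. Counting those, 10 of 20 alternatives gave no call, among them a common sum (limma adjusted p = 0.220), median ratios (0.0517), a pseudocount of 5 (0.0571) and no prior trend (0.0596). Themis2, Anxa4 and Slc46a3 were most like it (r = 0.996, 0.995 and 0.994 over the 8 libraries).

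Cd244 (Entrez 18106), which codes for the SLAM family receptor 2B4, had the smallest SD of the 9 genes in negative libraries, at 3.69, 4.54, 4.29 and 3.35 RPKM. In positive replicates 1 to 4 it was at 31.6, 43.9, 12.1 and 11.8 RPKM, again highest in replicates 1 and 2. The log2 difference was 2.17 (SE 0.41, limma adjusted p = 0.0129, called in 7 of 8 fits with 1 library left out). The call was lost with a common sum (limma adjusted p = 0.0989) and in replicates 3 and 4 alone (0.0659). The log2 difference was 2.91 (SE 0.42) within replicates 1 and 2 and 1.43 (SE 0.34) within replicates 3 and 4. The difference between these sets was -1.48 (SE 0.53, unadjusted p = 0.0108 in limma), which did not pass over all genes (adjusted p = 0.741). Acer3, Erlin1 and Prcp were most like it (r = 0.99 each).

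Markers of dendritic cells and macrophages were higher in the same positive libraries as these 3 genes, and many of them had the same order of replicates. In positive libraries 8 of 16 dendritic cell markers and 11 of 16 macrophage and monocyte markers were higher in both of replicates 1 and 2 than in both of replicates 3 and 4, as Havcr2, Btla and Cd244 were. The reverse order was seen for 5 and 1 of them. Their part in the levels of the 3 genes was not tested. A few genes weigh heavily in the sums: the class II MHC genes H2-Aa, H2-Ab1 and H2-Eb1 and their invariant chain gene Cd74 made up 89.0% to 95.5% of the dendritic cell sum in positive libraries, and Ly6c2 and Lyz2 made up 39.5% to 72.1% of the macrophage and monocyte sum. Summed dendritic cell markers were 9783, 11475, 13319 and 12908 RPKM in positive replicates 1 to 4, lower in replicates 1 and 2. Xcr1, a chemokine receptor of cross-presenting dendritic cells named after its values were seen, was at 97.0, 148.5, 49.0 and 29.4 RPKM there, and at 2.47 to 4.41 RPKM in negative libraries. Batf3, a dendritic cell marker named likewise, had the reverse order, at 22.9, 38.2, 110.4 and 142.7 RPKM in positive replicates 1 to 4. H2-Aa, H2-Ab1, H2-Eb1 and Cd74 had this reverse order too, and H2-Aa and H2-Eb1 were likewise named after their values were seen. Csf1r, the macrophage growth factor receptor, also named after its values were seen, was at 152.6, 166.3, 19.3 and 27.7 RPKM in positive libraries. Cd74 and H2-Ab1, the most abundant dendritic cell markers, were at 5553 and 2915 RPKM in positive libraries on average, against 622.0 and 257.7 RPKM. No marker of the dendritic cell or macrophage lists was at 0 in more than 1 library.

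**Figure D2:**
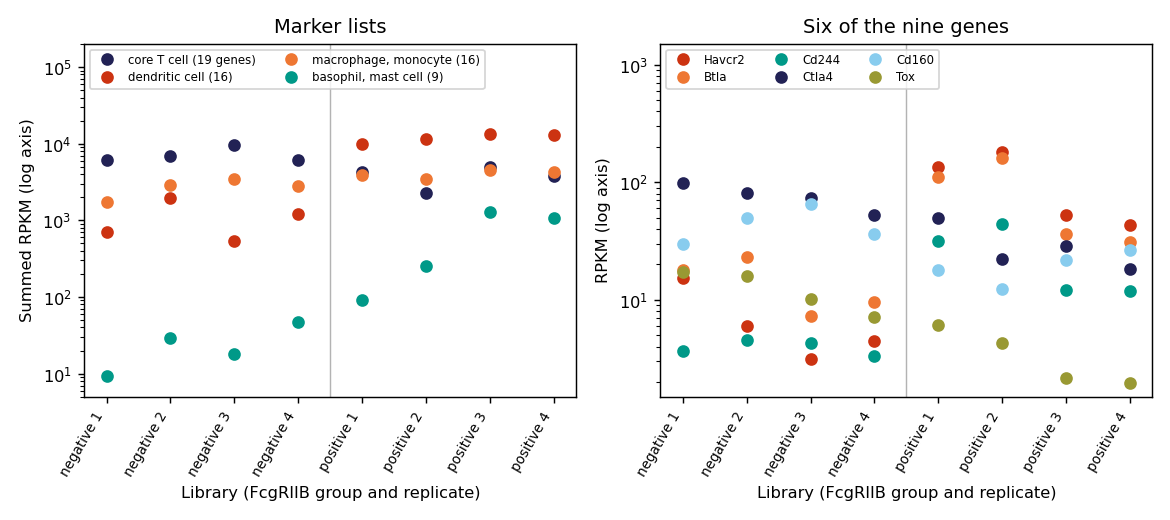
Left, summed RPKM (log axis) of markers of T cells, dendritic cells, macrophages and monocytes, and basophils and mast cells in each library. Right, RPKM (log axis) of Havcr2, Btla, Cd244, Ctla4, Cd160 and Tox in the same libraries. Dendritic cell markers sum to at least 9783 RPKM in every positive library and to at most 1983 RPKM in every negative one.

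Among the other receptors, Ctla4 and Cd160 were lower in positive libraries with the block, and Pdcd1, Lag3 and Tigit passed neither fit. Ctla4 (Entrez 12477) was the most abundant of the 9 genes in negative libraries, at 97.7, 81.3, 73.9 and 52.4 RPKM in replicates 1 to 4. In positive libraries it was at 49.6, 22.4, 28.5 and 18.4 RPKM, so that the highest positive library lay just under the lowest negative one. The log2 difference was -1.39 (SE 0.38), with a limma adjusted p of 0.0861 without and 0.000183 with the block. It was lower in 4 of 4 pools. Aqp3, Rbm4b and Dcp1b were most like it (r = 0.98 each).

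Cd160 (Entrez 54215), the gene of a GPI-anchored receptor of cytotoxic cells, was at 29.6, 49.3, 65.7 and 36.3 RPKM in negative and at 17.8, 12.3, 21.6 and 26.3 RPKM in positive replicates 1 to 4. Here too the ranges parted only narrowly. The log2 difference was -1.16 (SE 0.36, limma adjusted p = 0.145, and 0.00391 with the block). The differences within the pools ran from -1.92 to -0.45. The genes most like it were Nabp2, Mettl23 and Ms4a4c (r = 0.98 each).

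Pdcd1 (Entrez 18566), the gene of PD-1, was at 26.8, 11.8, 12.5 and 10.5 RPKM in negative and at 15.0, 7.09, 8.68 and 4.88 RPKM in positive replicates 1 to 4. It was lower in 4 of 4 pools by similar steps, between -0.97 and -0.48, but the groups overlapped. Its log2 difference of -0.73 (95% interval -1.58 to 0.12) did not pass (limma adjusted p = 0.533, and 0.0644 with the block). The lowest value rests on 50 reads, and Pitpnc1 was the gene most like it (r = 0.95).

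Lag3 (Entrez 16768) was at 12.3, 6.62, 7.66 and 19.4 RPKM in negative and at 5.33, 5.33, 10.3 and 12.6 RPKM in positive replicates 1 to 4. It was lower in 3 of 4 pools, the groups overlapped, and the log2 difference of -0.39 (95% interval -1.25 to 0.47) did not pass (limma adjusted p = 0.874). Tigit (Entrez 100043314), a receptor for the poliovirus receptor, was at 20.6, 18.9, 31.9 and 18.7 RPKM in negative and at 24.8, 7.36, 16.9 and 18.4 RPKM in positive replicates. It was lower in 3 of 4 pools, and its log2 difference was -0.47 (SE 0.38, limma adjusted p = 0.785). Gpr3 was most like Lag3 (r = 0.97), and Gzmm, a granzyme gene, most like Tigit (r = 0.92). None of these intervals shows that the levels were alike.

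Tox (Entrez 252838) was at 17.4, 15.9, 10.1 and 7.15 RPKM in negative and at 6.07, 4.26, 2.16 and 1.98 RPKM in positive replicates 1 to 4. The groups did not overlap, and in both groups replicates 1 and 2 were above replicates 3 and 4. Of the 9 genes it had the most even change, between -1.81 and -1.38 in the 4 pools, and the lowest positive value rests on 73 reads. The log2 difference was -1.58 (SE 0.38, limma adjusted p = 0.0430, and 0.000240 with the block). The unblocked call held in 2 of 8 fits with 1 library left out, those without negative replicate 4 or positive replicate 1, and its adjusted p reached 0.155 without negative replicate 2. Counting these 8 fits, 13 of 20 alternatives gave no call for Tox. Among them were a common sum (limma adjusted p = 0.226), median ratios (0.0641), a pseudocount of 5 (0.05055) and no prior trend (0.0633). Prkcq, a kinase of T cell receptor signalling, was the gene most like it (r = 0.995), followed by Inpp4b and Xrcc5 (r = 0.98 each).

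**Figure D3:**
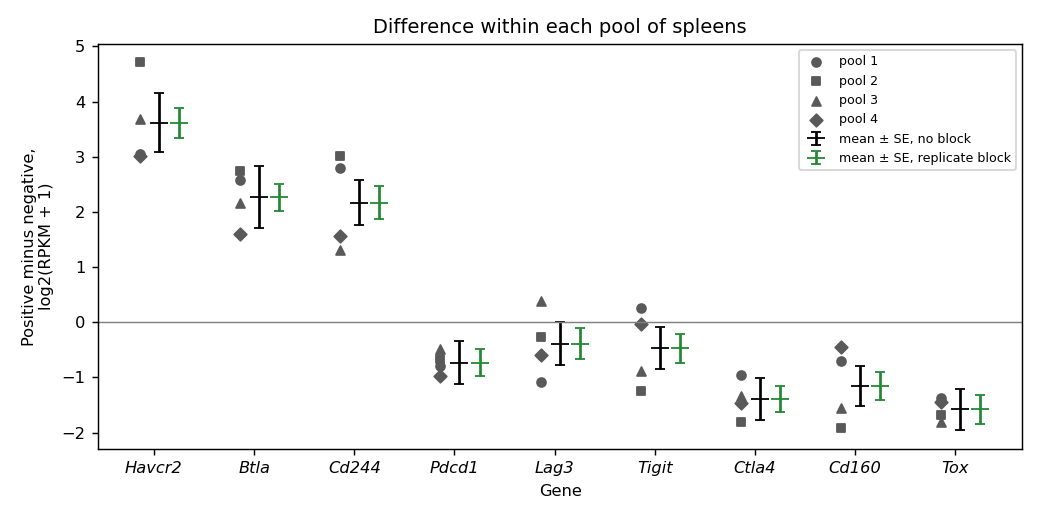
Positive minus negative difference in log2(RPKM + 1) within each pool of spleens (grey markers), with the mean and its SE from limma without (black) and with (green) the replicate block. All 4 pools lie above 0 for Havcr2, Btla and Cd244 and below 0 for Pdcd1, Ctla4, Cd160 and Tox, while Lag3 and Tigit each have 1 pool above 0.

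Because the core T cell genes were lower in the positive libraries, the 9 genes were also compared after scaling every library to those 19 genes, none of which is among the 9. This moved the median of all genes from -0.11 to 0.685, and it called 8.03% of all genes higher and 0.0167% lower. Havcr2, Btla and Cd244 were called higher there too, at 4.51, 3.21 and 3.03 (limma adjusted p = 0.000373, 0.00402 and 0.00170). Tox, Ctla4 and Cd160 remained below 0 at -0.74, -0.43 and -0.20, without a call (limma adjusted p = 0.242, 0.355 and 0.660). The other receptors changed sign, with Pdcd1 at 0.17, Tigit at 0.46 and Lag3 at 0.49, also without a call. With the block added to this scaling, the counts stayed at 3 higher and 0 lower of 9, where 38.9% and 0.134% of all genes were called. On this scale none of the 9 genes was lower in limma at an unadjusted p under 0.05 either, with or without the block (0 in both).

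**Figure D4:**
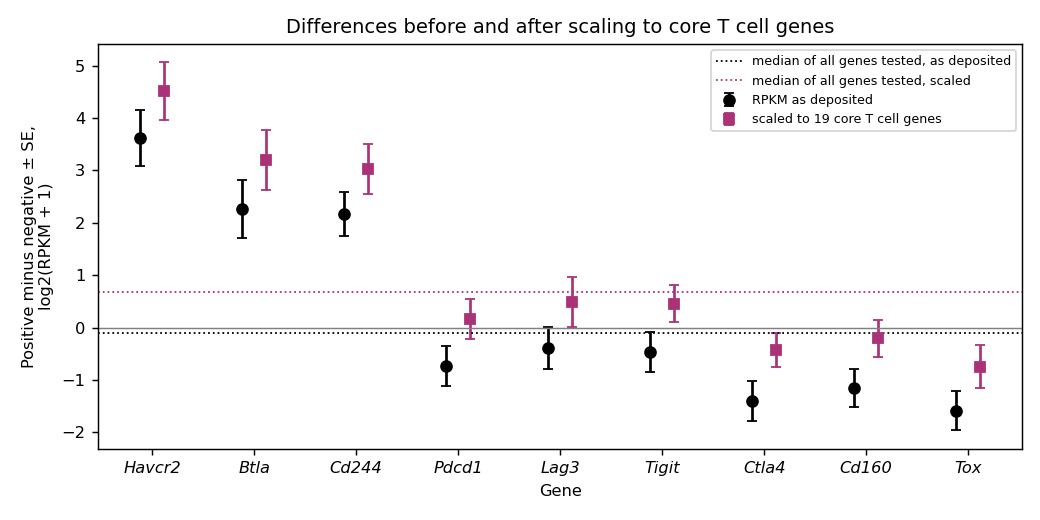
Log2(RPKM + 1) difference, positive minus negative, with its SE, for RPKM as deposited (black) and after scaling each library to 19 core T cell genes (purple). Dotted lines give the median of all genes tested. Havcr2, Btla and Cd244 lie above both medians, and Pdcd1, Lag3 and Tigit change sign with the scaling.

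The 2 sets of replicates that differ in depth gave the same direction for each of the 9 genes. Replicates 1 and 2 alone called 3 of 9 higher (7.32% of all genes) and 3 lower, namely Tox, Ctla4 and Cd160 (1.19% of all genes). Replicates 3 and 4 alone called Havcr2 and Btla higher (2.29% of all genes) and none lower (0.0921% of all genes), with Tox, Ctla4 and Cd160 lower at an unadjusted p under 0.05 in limma. Tox was at -1.53 and -1.63 in these 2 sets, Ctla4 at -1.39 and -1.40, Havcr2 at 3.88 and 3.35 and Btla at 2.66 and 1.88. No difference between the sets passed over all genes for any of the 9 (limma, adjusted p of 0.741 or above).

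Ordered by mean level, the genes in negative libraries ran Ctla4 (76.3 RPKM), Cd160 (45.2), Tigit (22.5), Pdcd1 (15.4), Btla (14.4), Tox (12.6), Lag3 (11.5), Havcr2 (7.21) and Cd244 (3.97 RPKM). In positive libraries the order was Havcr2 (103.0 RPKM), Btla (84.6), Ctla4 (29.8), Cd244 (24.9), Cd160 (19.5), Tigit (16.9), Pdcd1 (8.90), Lag3 (8.38) and Tox (3.62 RPKM). Each neighbouring pair in either order had overlapping ranges, so only wider steps exceed the spread between libraries. Within single libraries Ctla4 was above Cd160 in 4 of 4 negative ones, and Havcr2 above Btla in 4 of 4 positive ones.

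The listed ligands of the receptors went both ways. The list leaves out the class II MHC genes that LAG-3 binds, which were counted among the dendritic cell markers. Of these, H2-Aa, H2-Ab1 and H2-Eb1 were called higher, at log2 differences of 3.91, 3.74 and 4.39. Their limma adjusted p were 0.00144, 0.00265 and 0.00128, and they were named here after their values were seen. For the counts of this list and the partner lists below, limma called 3.03% of all genes tested higher and 0.268% lower. With the block these shares were 7.22% and 3.85%. Of 12 ligand genes tested, Cd80 and Cd86, ligands of CTLA-4 and CD28 on antigen-presenting cells, were higher (4 higher and 1 lower with the block), and the list's median was 0.19. Cd86 was at 120.2 ± 68.6 against 27.2 ± 11.7 RPKM (log2 difference 2.01, limma adjusted p = 0.0442) and Cd80 at 7.72 ± 2.01 against 2.53 ± 0.25 RPKM (1.28, adjusted p = 0.0304; SD, n = 4 each). Neither call was stable: each held in 2 of 8 fits with 1 library left out, and neither gene was called without negative replicates 1, 2 or 3 or positive replicates 1 or 2, or with a common sum (adjusted p = 0.189 for Cd80 and 0.226 for Cd86). The ligands named next were picked after their values were seen. Lgals9, which codes for the TIM-3 ligand galectin-9, was at 129.3 against 268.8 RPKM and was called lower with the block alone (log2 difference -1.05, blocked limma adjusted p = 0.0119). Cd274, the gene of PD-L1, at 0.35, Tnfrsf14, the HVEM gene, at 0.00, and Cd48, the CD244 ligand gene, at -0.37 passed in neither fit.

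No call was made by limma among 16 proximal signalling genes (unadjusted p under 0.05 for 1 above and 5 below 0), and 2 were higher and 4 lower with the block (median -0.37). The smallest p was that of Sh2d1b1, which codes for the CD244 adaptor EAT-2 of innate cells, at 11.4 against 2.79 RPKM (log2 difference 2.04, limma adjusted p = 0.0507, and 0.000298 with the block). Another CD244 adaptor gene, that of SAP (Sh2d1a, chosen with its value known), was at 92.2 against 258.5 RPKM (-1.54, adjusted p = 0.159, and 0.000699 with the block). So the 2 listed adaptor genes of this receptor had opposite signs, each called with the block.

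Of 19 genes of TOX relatives, NFAT, NR4A and related regulators 3 fell and none rose (1 higher and 3 lower with the block, median 0.05). They were Id3, Tcf7 and Eomes, regulators of memory, with log2 differences of -1.99, -1.44 and -1.24 (limma adjusted p = 0.0187, 0.0336 and 0.0318). With 1 library left out, Id3 was called in 4 of 8 fits, and Tcf7 and Eomes in 1 of 8 each. None of the 3 was called without negative replicates 2 or 3 or positive replicates 1 or 2, and Id3 alone was called with a common sum or median ratios. Tox4, the other TOX family gene tested, was at 0.29 and Nfatc1 at -0.28, and neither passed. Nr4a1, an early gene of receptor signalling, was at 140.0 against 51.9 RPKM and was called with the block alone (1.41, adjusted p = 0.211, and 0.000207 with the block). These 3 names were added after their values were seen.

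Of 19 other inhibitory receptors only Pilra, a paired receptor of myeloid cells, rose (1.96, limma adjusted p = 0.0405), and 5 were higher and 3 lower with the block. The 1 call among 19 stands beside 3.03% called higher of all genes tested, and the blocked counts beside 7.22% higher and 3.85% lower. The Pilra call held in 3 of 8 fits with 1 library left out, failing without negative replicates 1, 3 or 4 or positive replicates 1 or 2, and it was lost with a common sum (adjusted p = 0.152). Of 14 activating partner receptors Slamf6 alone fell (-1.97, limma adjusted p = 0.0132), with 1 higher and 7 lower under the block and a median of -0.95. Slamf6 lost its call without negative replicate 3 (adjusted p = 0.0655) and with a common sum (0.0855). Cd226, which competes with TIGIT for its ligand, and Cd28, the counterpart of CTLA-4, both named after their values were seen, were at -1.12 and -0.98 and were called with the block alone (adjusted p = 0.00444 and 0.00668). After scaling to core T cell genes limma called no gene of these 5 lists lower without the block (2 had an unadjusted p under 0.05, Id3 and Slamf6). With the block it called 1 lower in each of the signalling, TOX-related and activating lists, where 0.134% of all genes tested were called lower. Without the block 4 ligand, 1 signalling, 2 TOX-related, 6 other inhibitory and 1 activating gene were called higher after this scaling (8.03% of all genes). With the block these counts were 8 of 12, 6 of 16, 11 of 19, 11 of 19 and 2 of 14 (38.9% of all genes). The median of the activating partners was 0.02 there, and -0.01 without Cd2, which is also one of the core T cell genes used for the scaling.

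**Figure D5:**
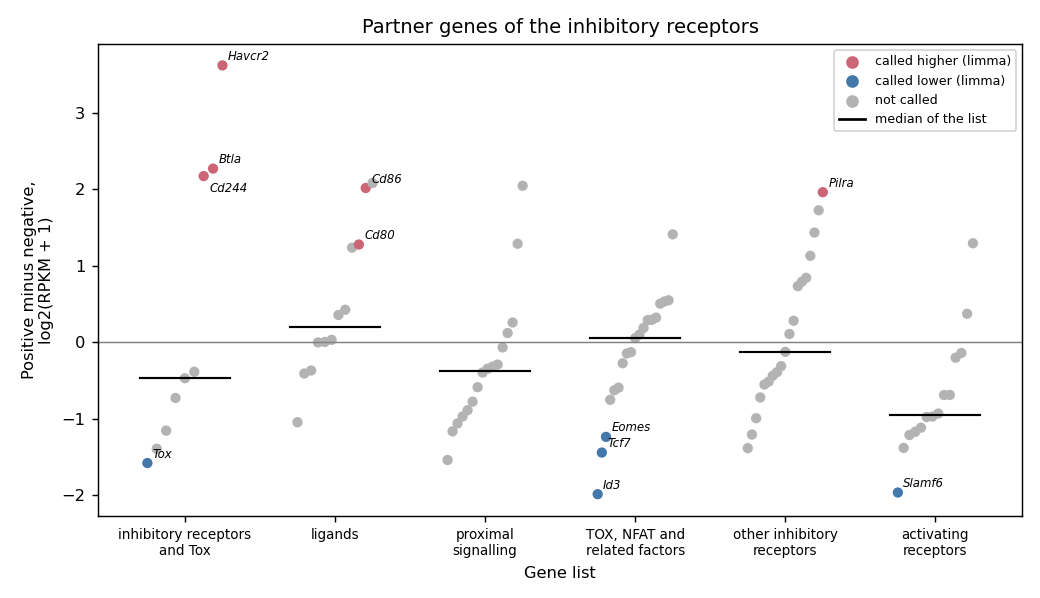
Log2(RPKM + 1) difference, positive minus negative, of each tested gene in 6 lists, with the median of each list as a bar. Red and blue genes were called higher and lower by limma without a block. The 4 called members of the main list span 3.62 (Havcr2) to -1.58 (Tox), while the partner lists hold 1 to 3 called genes or none.

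Markers of other lymphocytes gave mixed values beside these results. The shares over all genes tested were 3.03% higher and 0.268% lower, and 7.22% and 3.85% with the block. Of 9 B cell genes tested 1 was higher, Jchain (1 higher and 2 lower with the block), and the list's median was -0.74 (summed 99.9 to 893.7 RPKM in negative and 458.0 to 991.5 RPKM in positive libraries). The sums cover 10 genes, and Jchain weighed most in positive libraries, at 374.9, 880.2, 478.5 and 263.7 RPKM in replicates 1 to 4. Jchain reached 431.5 RPKM in negative replicate 2, so its groups overlapped. Of 7 NK cell genes 2 were higher, Fcer1g and Klri2 (3 with the block), with a median of 0.37 (811.7 to 1148 against 1224 to 6089 RPKM), and Fcer1g is also a myeloid gene. Tyrobp and Fcer1g weighed most in the highest sums, at 2473 and 1144 RPKM in positive replicate 3 and 3444 and 1810 RPKM in positive replicate 4. Tyrobp was called with the block alone. Ncr1 and Klrb1c, at log2 differences of 0.37 and 0.35, passed in neither fit. Fcer1g, Klri2, Ncr1 and Klrb1c were named after their values were seen. Of 7 plasmacytoid dendritic cell genes, cells known for high Lag3, 1 was higher and 1 lower (157.9 to 394.0 against 150.6 to 617.2 RPKM). Of 7 genes of CD4 and regulatory T cells, which include Ctla4 itself, limma called none without the block (unadjusted p under 0.05 for 1 above and 1 below 0). With the block it called Cd4 higher (adjusted p = 0.0108) and Ctla4 lower. Foxp3 was at 1.24 against 3.07 RPKM. Cd4 and Foxp3 were named after their values were seen. The part of all these markers in the levels of the 9 genes was not tested.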

How the data were processed

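Libraries were made from 1000 sorted cells each with the SMART-seq v4 and NexteraXT kits, per the labels' protocols. The authors deposited RPKM values per gene, per the file headers. Per the submitters' processing notes, TopHat2 (no version) was used with the build mm9. The counting step and its use of strand are not given in the sources used here. Group and replicate number were read from library titles.

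RPKM values are not counts, so limma 3.58.1 (R 4.3.3; eBayes with a trend) was run on log2(RPKM + 1), two-sided, with the group as the only term. The filter of 1 RPKM or more in 4 or more libraries left 11946 genes to test and removed 1258, and p-values were adjusted over all of them by the Benjamini-Hochberg method at 0.05. Fold changes are on the log2(RPKM + 1) scale and understate the change of low genes. The exact permutation test of a single gene ran over all 70 assignments of 4 positive and 4 negative labels. The steps without a block were tested on simulated data, with libraries drawn independently and no pools. They recovered 8% of 2-fold, 48% of 4-fold, 81.3% of 8-fold and 92% of 16-fold changes, and 3.6% of calls were false. Most changes near 2-fold were thus missed, so a gene without a call is not shown to be unchanged.

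Per the series design text both libraries of a replicate number come from 1 pool of spleens. The 2 libraries of pools 1 to 4 deviated together from their group means (r = 0.70, 0.41, 0.56 and 0.68 across genes), so the blocked fit is given beside the 9 genes and beside the list counts it moves. Alternatives changed the block, pseudocount, filter, scaling, prior and libraries.

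Depth was recovered as the number of reads at which low RPKM values were whole read counts. In every library 100% of the values checked were whole within 0.1 reads. At the shallowest, 1 read was worth 0.327 RPM (RPKM times exon length). Reads from amplified cDNA are not independent molecules.

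The 9 genes and all lists were chosen with earlier results of these data known, so no adjustment over a list alone is given. Named were all 9 genes, up to 3 called genes per direction of each partner list or the one with the smallest p, the most abundant markers, and the genes with the highest Pearson r to each of the 9 over the 8 libraries. That r is a description over libraries that share pools and depth. Names added outside this rule are marked. The result of 1 gene that the rule took is not reported here. Symbols were matched to lists through GRCm38 names, which 13187 of the Entrez IDs had.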

Additional observations from a re-analysis of the deposited data

Results flagged for a closer look

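Within each group of 4, the highest or lowest library of each of the 9 genes was compared with the others by Dixon's ratio. In 2 of 18 such groups 1 library stood apart, where chance gives about 1 in 20. Pdcd1 was at 26.8 RPKM in negative replicate 1, with the other negative libraries between 10.5 and 12.5 RPKM. Tigit was at 31.9 RPKM in negative replicate 3, with the others between 18.7 and 20.6 RPKM. Without these libraries the log2 differences were -0.44 for Pdcd1 and -0.30 for Tigit, and neither passed in limma (adjusted p = 0.820 and 1.00).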

How the results depend on the processing

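Without a block, limma called 3 of the 9 genes higher and 1 lower, and 362 of all genes higher and 32 lower. With the replicate block these counts were 3, 3, 863 and 460, and the block changed no call among the 9 genes other than those of Ctla4 and Cd160. Rescaling to a common sum gave 1, 0, 220 and 8, and median ratios called 2 of the 9 higher and 0 lower, with 19 of all genes lower. Scaling to core T cell genes called 0 of the 9 lower, with 959 of all genes higher and 2 lower, and with the block 0 of the 9 lower, 4652 and 16. A pseudocount of 5 and a fit with no prior trend each called 2 of the 9 higher and 0 lower, the latter with 19 of all genes lower. The call lost among higher genes under these 2 and median ratios was that of Btla, which 10 of 20 alternatives did not call. Tox, the 1 gene of the 9 called lower without a block, was not called in 13 of 20, and Cd244 in 3 of 20. Replicates 1 and 2 alone called 3 of the 9 lower, with 875 and 142 of all genes, and replicates 3 and 4 alone 0 of the 9 and 11 of all genes lower. With single libraries left out the counts ran from 1 to 3 higher and from 0 to 2 lower among the 9, and from 178 to 503 and from 5 to 45 among all genes. The single call left among higher genes was that of Havcr2, without negative replicate 3, where Cd244 narrowly missed the threshold. Under the core T cell scaling Pdcd1, Lag3 and Tigit reversed to 0.17, 0.49 and 0.46 with and without the block (exact permutation p = 0.686, 0.400 and 0.143). Havcr2 was called under every alternative run. The causes of these changes were not tested. The thinnest value of the 9 genes rests on 40 reads (Havcr2 in negative replicate 4), and depth limits the low levels of replicates 3 and 4 most.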

Other observations

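The makeup of the summed receptor transcript differed between the groups, given here as a description with no test. The 8 receptor genes summed to 154.7 to 223.9 RPKM in negative and to 166.5 to 440.9 RPKM in positive libraries. Havcr2, Btla and Cd244 made up 16.4%, 16.7%, 7.13% and 11.2% of this sum in negative replicates 1 to 4 and 71.1%, 87.6%, 53.9% and 51.6% in positive replicates 1 to 4. Ctla4 and Cd160 together made up 56.9% to 67.6% in negative and 7.88% to 26.9% in positive libraries. These genes were grouped by their direction in the same libraries, so the opposite shares follow from that choice.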
